A study of Mus musculus with 6 samples.

Results

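The genes described here are 10 genes of triglyceride assembly, measured in whole mouse liver with and without Pfn2. They are the 3 lipins Lpin1, Lpin2 and Lpin3, and 7 acyltransferases, Gpam, Gpat4, Agpat2, Agpat3, Dgat1, Dgat2 and Mogat1. All 10 were found among the 22180 genes tested, each through an array row that names exactly 1 gene symbol. Only Lpin2 had more than 1 such row, and its row of highest mean value was kept, blind to genotype. The set was selected on the Pfn2-/- minus wild-type difference of Lpin1 in these arrays together with gene function, so the members' differences are given as a description. No member's difference is used as support for another.

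The series held 6 Affymetrix arrays of liver from C57BL/6 mice, 3 of Pfn2-/- animals and 3 of wild-type animals, labelled as independent biological replicas. Pfn2 encodes profilin 2, which binds free actin and helps to control filament growth. The sources used here do not give how the Pfn2-/- allele was made, nor the sex or feeding state of the animals. In both genotypes replicate 1 was 9, replicate 2 was 8.5 and replicate 3 was 8 months old, and no treatment was given.

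Triglyceride is assembled on glycerol 3-phosphate in steps. Glycerol phosphate acyltransferases (the products of Gpam and Gpat4) add the first fatty acid, and acylglycerol phosphate acyltransferases (Agpat2, Agpat3) add the next, which gives phosphatidate. Lipins are phosphatidate phosphatases that remove the phosphate and leave diacylglycerol, and diacylglycerol acyltransferases (Dgat1, Dgat2) add the last fatty acid. Mogat1 makes diacylglycerol from monoacylglycerol instead. In mice lipin 1 is also described as a nuclear coactivator of genes for fatty acid oxidation, and mice without it have fatty livers early in life and lack normal fat tissue.

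The 250 bases before the annotated start of each lipin gene are shown because the comparison of Lpin1 with its paralogs is the main one here. Promoter windows came from RefSeq (GRCm38.p6), which matched 7 of the 10 members by symbol. Gpat4, Dgat1 and Dgat2 had no entry. The windows of Lpin1 (chr12:16610967-16611216, minus strand), Lpin2 (chr17:71183282-71183531, plus strand) and Lpin3 (chr2:160880420-160880669, plus strand) are written 5′ to 3′ on the strand of the gene. Capitals mark the matches to 4 short motifs described below.
Lpin1: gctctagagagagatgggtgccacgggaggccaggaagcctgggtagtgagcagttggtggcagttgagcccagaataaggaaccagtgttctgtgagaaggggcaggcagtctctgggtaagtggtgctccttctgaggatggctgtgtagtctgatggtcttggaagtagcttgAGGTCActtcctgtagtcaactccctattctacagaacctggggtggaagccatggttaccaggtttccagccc
Lpin2: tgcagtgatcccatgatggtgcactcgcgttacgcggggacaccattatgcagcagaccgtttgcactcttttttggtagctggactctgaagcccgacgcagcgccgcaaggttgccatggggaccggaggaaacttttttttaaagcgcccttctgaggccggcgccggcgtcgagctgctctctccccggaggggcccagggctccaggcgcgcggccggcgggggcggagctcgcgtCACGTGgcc
Lpin3: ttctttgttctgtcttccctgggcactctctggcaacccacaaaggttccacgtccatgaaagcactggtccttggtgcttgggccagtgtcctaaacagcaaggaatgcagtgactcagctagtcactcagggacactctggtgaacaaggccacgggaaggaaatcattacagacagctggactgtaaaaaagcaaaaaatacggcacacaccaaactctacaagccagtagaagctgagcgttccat
The Lpin1 window held 1 CpG, that of Lpin2 held 26 and that of Lpin3 held 4, where the median over 32851 windows of this length was 6. The motifs searched on both strands were AGGTCA, a core site of nuclear receptors, CACGTG, an E-box, TGACGTCA, a cyclic AMP response element, and TCACNCCAC, a sterol response element. AGGTCA occurred once before Lpin1, 74 bases from the start, and is found in 14% of all windows. CACGTG occurred once before Lpin2, 9 bases from the start, and is found in 6.02% of all windows. The cyclic AMP element, found in 1.55% of all windows, and the sterol element, found in 1.05%, had no match before these 3 genes. No matches overlapped. The table lists 1 start for Lpin1, 3 for Lpin2 and 2 for Lpin3, of which the first is shown. The other Lpin2 windows held 50 and 3 CpG and the other Lpin3 window held 16, so the order of the genes depends on the start, and which start is used in these livers was not measured. The Lpin1 start lies inside the annotated gene, which spans chr12:16535669-16653903.

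Expression values are RMA values on the log2 scale, where a difference of 1 is a doubling. Array medians were 4.36 to 4.41 over 34390 rows. Arrays correlated at 0.979 to 0.988 across rows within a genotype and at 0.980 to 0.986 across genotypes. Rows are not replicates of each other. The row of Pfn2 lay at 3.88, 3.81 and 3.93 in Pfn2-/- livers and at 4.02, 3.85 and 4.09 in wild-type livers, below the median gene mean of 4.72. The genotypes overlapped there, and the part of the transcript that its probes cover is not given, so the row does not check the labels. Hepatocyte markers, with albumin among them, had mean levels of 10.50 to 10.59 in Pfn2-/- arrays and of 10.56 to 10.83 in wild-type arrays. These ranges overlapped, over 7 of 8 genes measured. All 7 had differences below 0, with a median of -0.12, and Ass1 differed most (-0.49, SE 0.18). Cholangiocyte markers had mean levels of 4.91 to 5.09 in Pfn2-/- arrays and of 4.81 to 4.895 in wild-type arrays. These ranges, over 4 of 5 genes measured, did not overlap. Of the 4 genes 3 had differences above 0 and 1 below it, from -0.1 to 0.58, with a median of 0.03. Taken singly, the genotypes lay apart in 1 of the 4 genes, and Sox9 differed most. The ranges of the 2 genotypes overlapped for the marker lists of Kupffer cells, endothelial cells, stellate cells, lymphocytes, skeletal muscle and pancreas. Adipocyte markers, which matter because fat tissue expresses several members, had mean levels of 4.58 to 5.01 in Pfn2-/- arrays and of 4.58 to 4.99 in wild-type arrays over 7 of 8 genes. Of these 7 genes 2 had means below the lower quartile of gene means of 3.80, and so did 3 of 6 skeletal muscle markers. The adiponectin gene Adipoq lay at 3.57 to 4.05 over the 6 arrays, the fatty acid binding protein gene Fabp4 at 5.79 to 7.05 and Plin4 at 5.27 to 6.41. Of the 7 adipocyte markers 4 had differences below 0 and 3 above it, with a median of -0.07. They ran from -0.37 for Fabp4 (SE 0.36) to 0.56 for Cidec (SE 0.25). The part of the marker lists in the members' differences was not tested.

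Lpin1 had the widest difference of the 10 members and was lower in every Pfn2-/- liver than in any wild-type liver. It lay at 8.36, 8.3 and 9.56 in Pfn2-/- replicates 1, 2 and 3, and at 10.54, 11.31 and 10.36 in wild-type replicates 1, 2 and 3. Pfn2-/- replicates 1 and 2 lay close together and replicate 3 stood above them, nearer to the lowest wild-type array. The means were 8.74 ± 0.71 in Pfn2-/- and 10.74 ± 0.50 in wild-type livers (SD, n = 3 each). The difference of -2.00 (SE 0.34, 95% confidence interval -2.76 to -1.23, limma) is a 3.99-fold lower value in Pfn2-/- livers. The adjusted p of Lpin1 over all genes was 0.444 in limma. Counted from the most negative difference, Lpin1 ranked 7 among 22180 genes. Between animals of the same age Lpin1 differed by -2.18 at 9 months, -3.01 at 8.5 months and -0.80 at 8 months. Without Pfn2-/- replicate 3 the difference was -2.41, and without wild-type replicate 2, the highest array, it was -1.71. In RNA of whole liver, fewer cells of a type and less RNA per cell cannot be told apart.

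Across the set, 0 of 10 members passed a Benjamini-Hochberg adjusted p of 0.05 over all genes in the limma fit, as did 0% of all genes. An unadjusted p under 0.05 was reached by 1174 genes, 5.29% of all. Of the members 5 were lower at that level (Lpin1, Lpin2, Gpat4, Dgat1 and Dgat2) and 0 were higher, where 2.62% of all genes were lower and 2.67% were higher. The genotypes did not overlap, with Pfn2-/- lower, in 4 of 10 members (Lpin1, Lpin2, Dgat1 and Dgat2), against 4.76% of all genes. With Pfn2-/- higher they were apart in 0 members, against 5.09% of all genes. The median difference was -0.33 over the members, -0.32 over the 9 members other than Lpin1 and 0 over all genes. These counts come from the contrast in view when the set was made, so nothing is read from them.

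**Figure D1:**
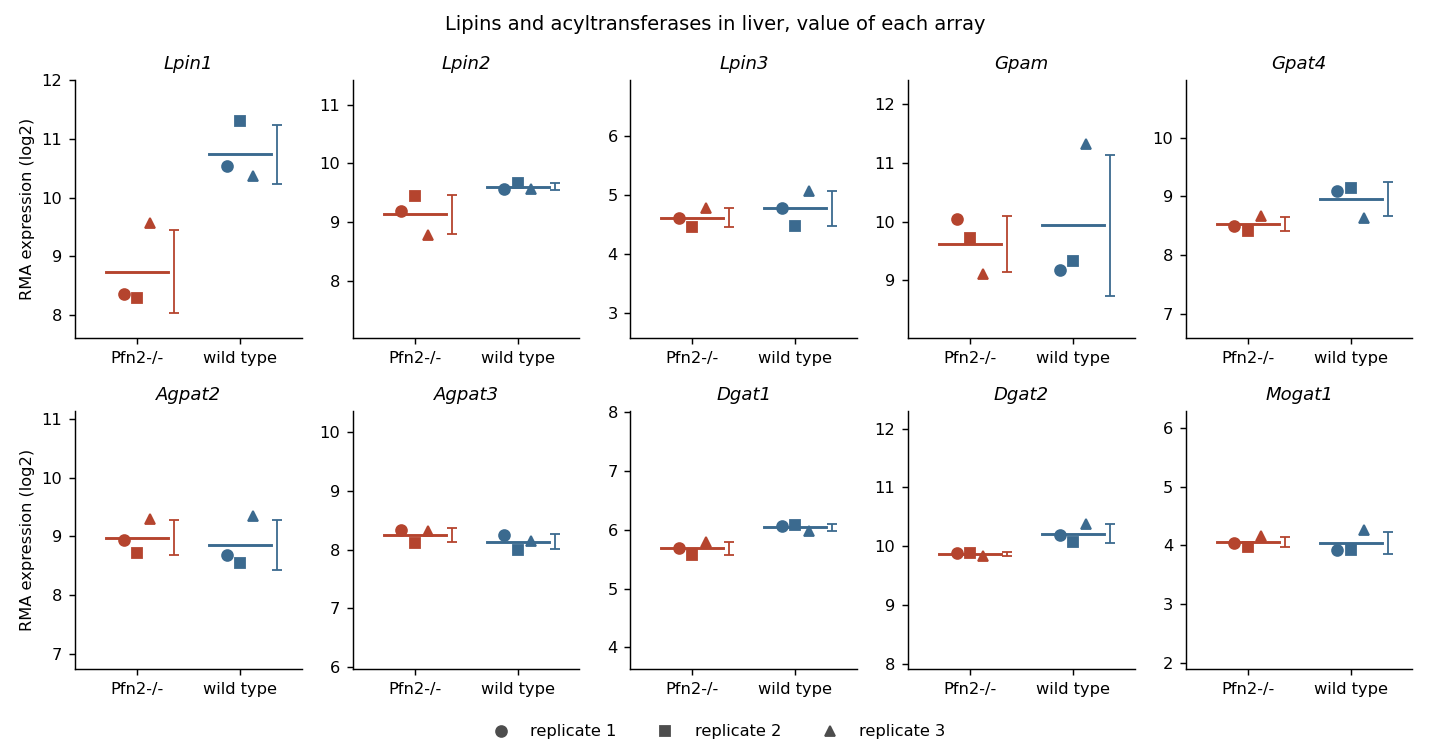
RMA expression on the log2 scale of the 10 members in each of 6 arrays, with Pfn2-/- at the left and wild type at the right of each panel. Symbols mark replicate numbers, horizontal lines are means and bars are SD (n = 3). Every panel spans the same number of log2 units, so the distance between groups can be compared across panels, and Lpin1 shows the widest one. Gpam has 1 wild-type array, at 11.32, far above the others.

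Lpin2, the other lipin with a bright row, was lower in Pfn2-/- livers by a smaller amount. It lay at 9.19, 9.44 and 8.78 in Pfn2-/- livers and at 9.57, 9.67 and 9.57 in wild-type livers. The wild-type arrays were tightly grouped and the Pfn2-/- arrays spread below them, with no overlap. The difference was -0.47 (SE 0.17, 95% confidence interval -0.84 to -0.09), and without Pfn2-/- replicate 3, the lowest array for this gene, it was -0.29. The second row of Lpin2 lay at 8.24, 8.35 and 8.5 in Pfn2-/- livers and at 8.44, 9.42 and 8.32 in wild-type livers. In that row the genotypes overlapped and the difference was -0.36 (SE 0.25), with wild-type replicate 2 far above the other 5 arrays. The 2 rows therefore share a sign but not an array pattern. Pfn2-/- replicate 3 was the highest Pfn2-/- array for Lpin1 and the lowest for the kept row of Lpin2.

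Lpin3, known in mice mainly from the intestine, had a row at about the median level. It lay at 4.62, 4.46 and 4.78 in Pfn2-/- livers and at 4.79, 4.47 and 5.07 in wild-type livers. The groups overlapped, and the difference was -0.16 (SE 0.17, 95% confidence interval -0.53 to 0.22). Single arrays moved it, to -0.01 without wild-type replicate 3, -0.08 without Pfn2-/- replicate 2, -0.24 without Pfn2-/- replicate 3 and -0.31 without wild-type replicate 2. Because RMA compresses the changes of dim rows, a change of this gene could show less than it was.

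Set against its paralogs within each array, Lpin1 was still lower in Pfn2-/- livers. Lpin1 minus the mean of Lpin2 and Lpin3 was 1.46, 1.35 and 2.78 in Pfn2-/- arrays, and 3.36, 4.24 and 3.04 in wild-type arrays. These are differences between rows with their own probes, so they are compared between genotypes and not read as abundance. The genotype means of 1.86 ± 0.80 and 3.55 ± 0.62 (SD, Pfn2-/- and wild type, n = 3 each) differed by -1.69. Against Lpin2 alone the genotype difference was -1.53, with Pfn2-/- arrays at -1.14 to 0.78 and wild-type arrays at 0.79 to 1.64, so the nearest arrays were almost equal. Against Lpin3 alone it was -1.84. No test is given for these contrasts, because they use the values that brought the set together.

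**Figure D2:**
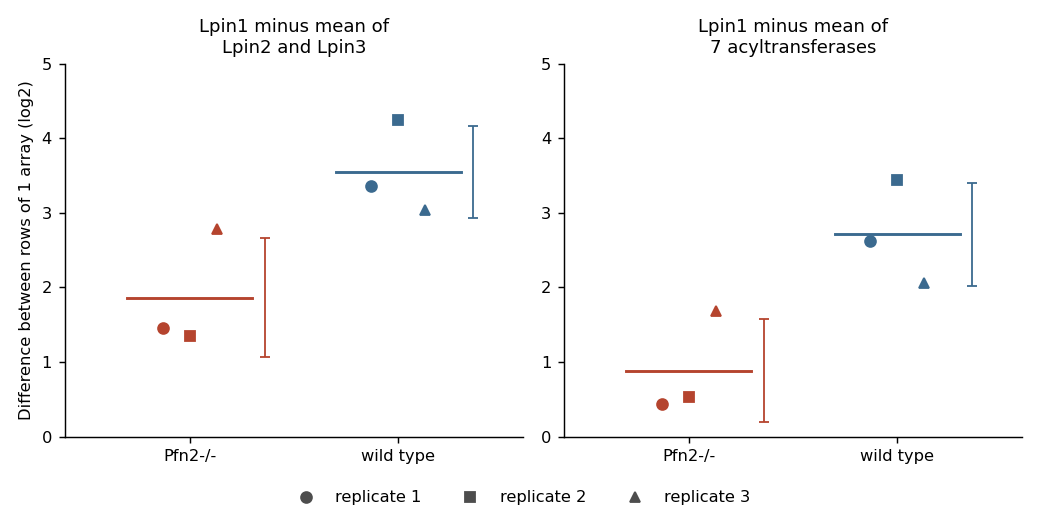
Difference in log2 value between Lpin1 and the mean of Lpin2 and Lpin3 (left) or the mean of the 7 acyltransferases (right) in each array, Pfn2-/- left of wild type. Symbols mark replicate numbers, lines are means and bars are SD (n = 3). In both panels all 3 Pfn2-/- arrays lie below all 3 wild-type arrays, and Pfn2-/- replicate 3 is the Pfn2-/- array nearest to wild type.

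The same held against the acyltransferases. Lpin1 minus their mean was 0.44, 0.53 and 1.68 in Pfn2-/- arrays, and 2.63, 3.44 and 2.07 in wild-type arrays. The genotype means were 0.88 ± 0.69 and 2.71 ± 0.69 (SD, Pfn2-/- and wild type, n = 3 each), a difference of -1.83. The mean of the 7 acyltransferases itself lay at 7.77 to 7.92 in Pfn2-/- arrays and at 7.87 to 8.29 in wild-type arrays, and these ranges overlapped. Of the 7 acyltransferases 4 had a difference below 0 and 3 above it, from -0.43 to 0.12.

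Of the enzymes of the first step, Gpat4 was lower in Pfn2-/- livers and Gpam depended on 1 array. Gpat4, the glycerol phosphate acyltransferase of the endoplasmic reticulum, lay at 8.5, 8.42 and 8.66 in Pfn2-/- livers and at 9.09, 9.15 and 8.63 in wild-type livers. Wild-type replicate 3 lay within the Pfn2-/- range, and the other wild-type arrays lay above it. The difference was -0.43 (SE 0.16, 95% confidence interval -0.79 to -0.07). Gpam, the mitochondrial enzyme and a target of the lipogenic factor SREBP-1c, lay at 10.04, 9.72 and 9.11 in Pfn2-/- livers and at 9.17, 9.33 and 11.32 in wild-type livers. Wild-type replicate 3 stood far above the other 5 arrays. The difference was -0.32 (SE 0.49, 95% confidence interval -1.41 to 0.78), and without that array it was 0.37, with the sign turned. Wild-type replicate 3 was also the highest of the 6 arrays for Lpin3, Agpat2, Dgat2 and Mogat1.

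Of the acylglycerol phosphate acyltransferases, the members Agpat2 and Agpat3 had groups that overlapped. Agpat1, of the same class but not a member, differed by -0.35 (SE 0.14) and is described with the other lists below. Agpat2, whose loss causes lipodystrophy in humans and mice, lay at 8.94, 8.71 and 9.29 in Pfn2-/- livers and at 8.69, 8.54 and 9.34 in wild-type livers. In both genotypes replicate 3 was highest and replicate 2 lowest, and the ranges overlapped. The difference was 0.12 (SE 0.22, 95% confidence interval -0.37 to 0.62), and it was -0.04 without wild-type replicate 2, -0.03 without Pfn2-/- replicate 3 and 0.365 without wild-type replicate 3. Agpat3 lay at 8.33, 8.11 and 8.31 in Pfn2-/- livers and at 8.25, 8 and 8.15 in wild-type livers. Its difference was 0.12 (SE 0.13, 95% confidence interval -0.17 to 0.40). It was 0.05 without wild-type replicate 2, 0.08 without Pfn2-/- replicate 1, 0.175 without wild-type replicate 1 and 0.19 without Pfn2-/- replicate 2. These intervals leave room for changes in either direction.

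Dgat1 and Dgat2, which share no sequence family and both make triglyceride from diacylglycerol, were lower in Pfn2-/- livers by nearly the same amount. Dgat1 lay at 5.69, 5.58 and 5.8 in Pfn2-/- livers and at 6.07, 6.08 and 5.98 in wild-type livers. The groups did not overlap, and the difference was -0.35 (SE 0.12, 95% confidence interval -0.62 to -0.09). Dgat2, the main enzyme for newly made fatty acids, lay at 9.89, 9.89 and 9.83 in Pfn2-/- livers and at 10.19, 10.07 and 10.38 in wild-type livers. The Pfn2-/- arrays were almost equal and all lay below wild type, with a difference of -0.34 (SE 0.13, 95% confidence interval -0.62 to -0.06). Dgat2 minus Dgat1 within an array was 4.18 ± 0.14 in Pfn2-/- and 4.17 ± 0.21 in wild-type livers (SD, n = 3 each). As folds, Dgat1 was 1.28-fold and Dgat2 1.27-fold lower in Pfn2-/- livers, far less than Lpin1.

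Mogat1, which feeds diacylglycerol from monoacylglycerol and is known to be induced in fatty mouse liver, had a dim row. It lay at 4.04, 3.98 and 4.16 in Pfn2-/- livers and at 3.93, 3.93 and 4.26 in wild-type livers. The groups overlapped and the difference was 0.02 (SE 0.14, 95% confidence interval -0.28 to 0.32). Its sign turned without wild-type replicate 1, wild-type replicate 2 or Pfn2-/- replicate 3, and under quantile normalization again and cyclic loess. With each array centred on its median the difference was 0.

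**Figure D3:**
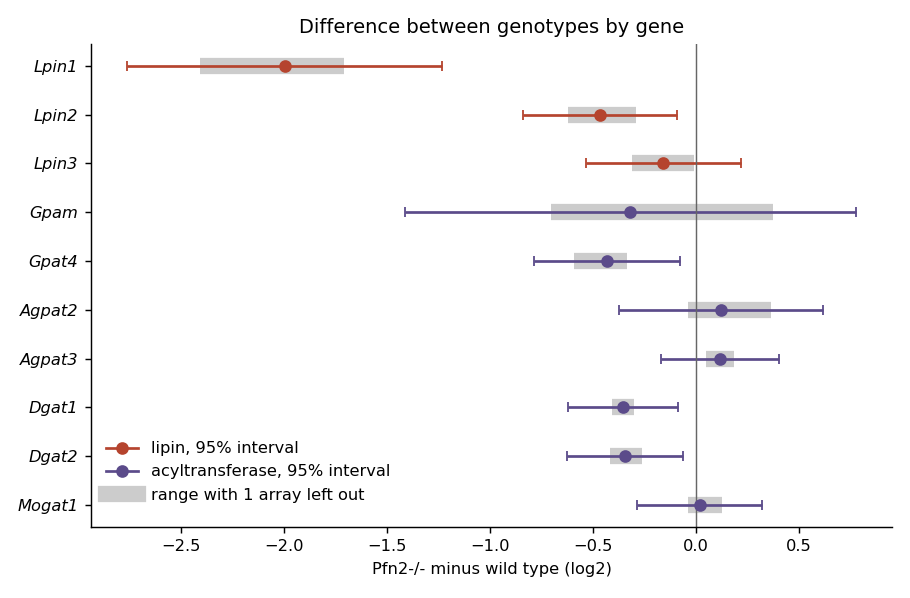
Difference of each member, Pfn2-/- minus wild type on the log2 scale, with its 95% confidence interval from limma (n = 3 per genotype). Grey bars span the values obtained when 1 array at a time was left out. Lpin1 lies at -2.00, the other members lie between -0.47 and 0.12, and the grey bar of Gpam reaches 0.37.

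Lpin1, Dgat1 and Gpat4 had like patterns over the 6 arrays. Pearson's r with Lpin1 was 0.97 for Dgat1 (Spearman's rho 1) and 0.89 for Gpat4 (rho 0.94), over 6 arrays that share the genotype difference. Among all genes 15, Dgat1 included, had an r of 0.97 or more by the unrounded value of Dgat1, and 229 reached the r of Gpat4. Within genotypes, as deviations from each genotype's mean, r was 0.83 for Dgat1 and 0.69 for Gpat4. It was -0.66 for Lpin2 and -0.68 for Dgat2, so the kept row of Lpin2 and the row of Dgat2 did not follow Lpin1 from animal to animal. The second row of Lpin2 did, with an r of 0.72 within genotypes, so the value for this gene depends on the row. Lpin3, Gpam, Agpat2, Agpat3 and Mogat1 had an r of -0.48 to 0.27 over the 6 arrays. These values describe 6 points and carry no test.

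Likeness to Lpin1 was ranked over 348 genes with an SD of at least 0.5 over the 6 arrays, leaving out predicted genes and clones. The SD spans both genotypes, so a genotype difference helps a gene to pass and enters its r. Dgat1, with an r of 0.97 over the 6 arrays, had a smaller SD and was not ranked here. The 6 of highest Pearson's r were St3gal5, which makes the ganglioside GM3 (0.96), the kinase gene Plk3 (0.95), Tbc1d8 (0.94), Klrd1, a receptor gene of natural killer cells (0.93), the lysophospholipid transporter gene Mfsd2a (0.92) and the flavin monooxygenase gene Fmo2 (0.92). St3gal5 lay at 7.95, 8.03 and 8.87 in Pfn2-/- livers and at 9.51, 9.61 and 8.82 in wild-type livers, so its groups overlapped at replicate 3. Klrd1 was dim, at 3.24 to 4.87. The 3 of lowest r were Adh6-ps1 (-0.92), the F-box gene Fbxo21 (-0.89) and the ubiquitin ligase gene Rnf125 (-0.89). By deviations within genotypes the 6 of highest r were Snora75 (0.99), Mir669h (0.97), Atp5c1-ps (0.97), the calcineurin regulator gene Rcan1 (0.94), Olfr427 (0.94) and the transcription factor gene Zbtb16 (0.93). In all 6 of these, Pfn2-/- replicate 3 was the highest Pfn2-/- array and wild-type replicate 2 the highest wild-type array, as in Lpin1. That order follows from picking genes by these deviations and is no separate result. Atp5c1-ps (mean 3.27) and Olfr427 (3.64) were dim, below the lower quartile of gene means of 3.80. Mir669h (4.36) lay below the median gene mean of 4.72.

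**Figure D4:**
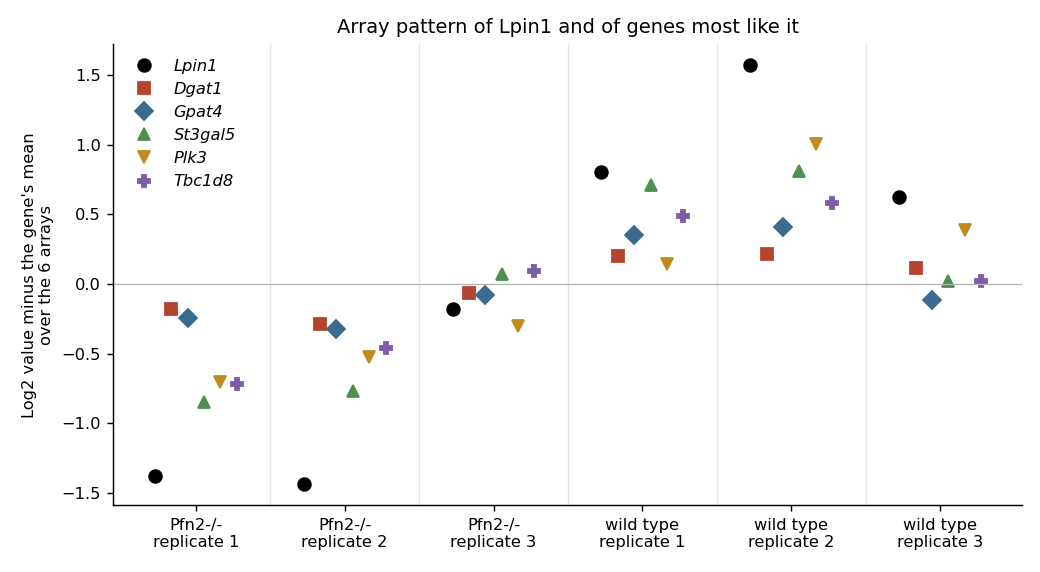
Log2 value of Lpin1, of the members Dgat1 and Gpat4, and of St3gal5, Plk3 and Tbc1d8, each minus its own mean over the 6 arrays, with the 3 Pfn2-/- arrays left of the 3 wild-type arrays. Points of one array are spread sideways for legibility. Lpin1 has the widest span, from 8.3 to 11.31 before centring, and Dgat1 keeps the same order of arrays over 5.58 to 6.08.

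Other genes around the route were taken from 5 lists with 82 genes, of which 74 were measured and 0 passed the adjusted threshold over all genes in limma. At an unadjusted p under 0.05, 10 of the 74 were lower and 3 higher, where the shares of all genes were 2.62% and 2.67%. The median difference over the 74 was -0.07. The lists were written with earlier results of these arrays known, so the counts are no independent evidence.

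Among 16 measured genes for other steps of triglyceride assembly, 4 were lower at that level, 0 were higher and the median was -0.09. They were Tm6sf2, which acts in loading triglyceride onto lipoproteins (-0.55, SE 0.18), the acyl-CoA synthetase genes Acsl4 (-0.44, SE 0.15) and Acsl5 (-0.42, SE 0.16), and Agpat1 (-0.35, SE 0.14). Their adjusted p was 0.895 to 0.915. Agpat1 lay at 5.63, 5.62 and 5.86 in Pfn2-/- livers and at 5.85, 6.23 and 6.08 in wild-type livers, so the groups met, unlike those of Tm6sf2, Acsl4 and Acsl5. Acsl5 lay at 9.67, 9.59 and 9.41 in Pfn2-/- livers and at 9.72, 9.95 and 10.25 in wild-type livers. Acsl3 and Cept1 share their rows with other genes, and Acsl1, Gyk and Lipc were not among the named rows, so they were not analysed here.

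Phosphatidate and diacylglycerol also feed phospholipid synthesis. Of 23 measured genes of that branch 2 were higher and 2 lower at an unadjusted p under 0.05 (median -0.09). The higher pair, Chpt1 and Selenoi, encode transferases that use diacylglycerol to make phosphatidylcholine and phosphatidylethanolamine. Chpt1 lay at 8.81, 8.62 and 8.77 in Pfn2-/- livers and at 8.32, 8.28 and 8.36 in wild-type livers, a difference of 0.41 (SE 0.12, adjusted p = 0.788 in limma). Selenoi lay at 8.35, 8.21 and 8.51 in Pfn2-/- livers and at 7.93, 8 and 8 in wild-type livers, a difference of 0.38 (SE 0.12, adjusted p = 0.859 in limma). In both genes all Pfn2-/- arrays lay above all wild-type arrays. The lower pair were Plpp2, a membrane phospholipid phosphatase gene (-0.53, SE 0.18), and the cardiolipin synthase gene Crls1 (-0.33, SE 0.13).

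Of 14 measured genes of triglyceride breakdown 1 was higher and 1 lower at an unadjusted p under 0.05 (median 0.08). The carboxylesterase gene Ces3a lay at 11.6, 11.49 and 11.48 in Pfn2-/- livers and at 11.06, 11.1 and 11.12 in wild-type livers. The arrays of each genotype were tight and the groups lay apart, with a difference of 0.43 (SE 0.11, adjusted p = 0.749 in limma). Aadac, an esterase gene of the endoplasmic reticulum, differed by -0.38 (SE 0.13).

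Of 13 regulators described for Lpin1 or its product 2 were lower and 0 higher at an unadjusted p under 0.05 (median -0.04). Ppargc1a, the coactivator gene that induces Lpin1 in fasted mouse liver, lay at 6.58, 7.13 and 6.33 in Pfn2-/- livers and at 7.58, 7.62 and 6.81 in wild-type livers. The groups overlapped, and the difference was -0.66 (SE 0.25, adjusted p = 0.915 in limma). Foxo1, a transcription factor gene of the insulin response, differed by -0.35 (SE 0.15) in the kept row and by -0.12 (SE 0.13) with the mean of its 2 rows. In the kept row its lowest wild-type array, at 7.75, lay just below its highest Pfn2-/- array, at 7.78. Of 8 measured targets of the receptor PPAR alpha, with which lipin 1 is described to act, 1 was lower at that level and the median was -0.15. The lower gene was Ehhadh, of peroxisomal fatty acid oxidation (-0.45, SE 0.17). Cyp4a14, a fatty acid hydroxylase gene, lay at 7.39, 8.77 and 9.61 in Pfn2-/- livers and at 9.87, 9.68 and 9.13 in wild-type livers, with overlap and a difference of -0.97 (SE 0.45). Without Pfn2-/- replicate 1 that difference was -0.37, and without Pfn2-/- replicate 3 it was -1.48.

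**Figure D5:**
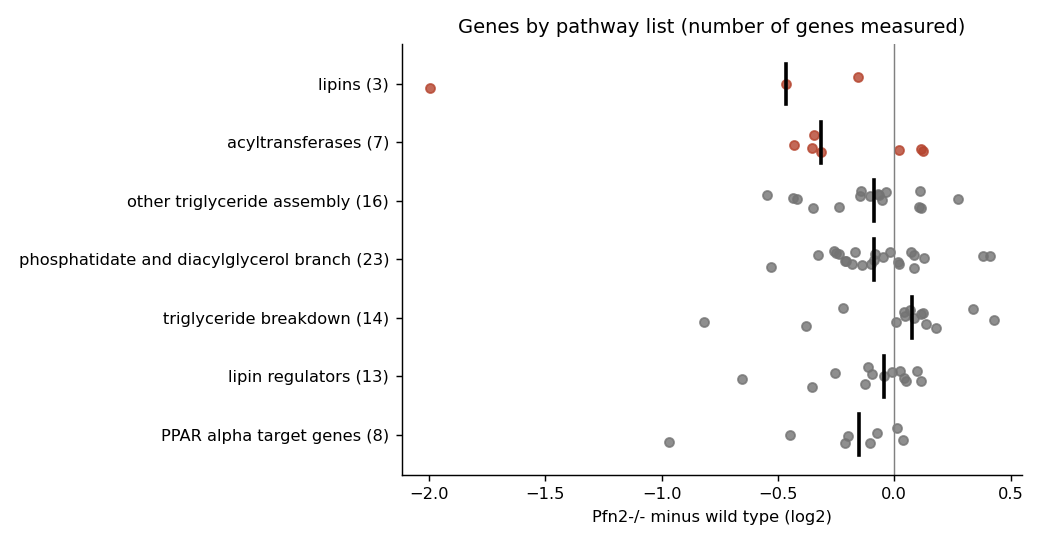
Difference of each measured gene, Pfn2-/- minus wild type on the log2 scale, by list. Points are genes, spread vertically for legibility, black bars are list medians and the grey line marks 0. The members are red, with Lpin1 at -2.00, and the medians of the 5 other lists lie between -0.15 and 0.08.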

How the data were processed

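RNA of whole liver was measured on 6 Affymetrix arrays. Livers had been frozen in liquid nitrogen, and Trizol extraction and biotin labelling (GeneChip WT PLUS) followed, per the labels' protocols. The authors deposited log2 values rounded to 2 decimals, and the submitters' processing notes name RMA and limma. The sources used here give neither versions nor the probe set level. RMA includes quantile normalization between arrays, so a shift common to all genes is lost, and changes of dim rows come out too small. The number of arrays limits the precision, and 3 against 3 arrays cannot reach 0.05 in an exact permutation test.

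Rows were named from the platform annotation. Of 34390 rows 23521 had 1 symbol, 1814 had several and 9055 were unnamed. Genotypes were compared over 22180 genes in R 4.3.3 by limma 3.58.1 (genotype only, two-sided, no trend) with Benjamini-Hochberg adjustment over all genes. The fit was tested on simulated data. Members and lists were chosen with earlier results of these data known. Named genes were all members, Pfn2, list genes with unadjusted p under 0.05 (up to 5 per list, at least 2 of smallest p) and the genes most like Lpin1, leaving out predicted genes. Same-numbered arrays of the genotypes share an age, and their deviations from the genotype means correlated at -0.08, 0.15 and 0.02. With 3 arrays per genotype these values cannot decide whether the arrays are pairs. The main fit did not pair them, and a replicate block was run as an alternative. The alternatives were 3 other normalizations, filters on dim genes, the mean of a gene's rows, trend or robust eBayes, a replicate block, array weights and leaving out single arrays.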

Additional observations from a re-analysis of the deposited data

How the results depend on the processing

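Lpin1 stayed below 0 under every alternative run, between -2.09 and -1.99, and between -2.41 and -1.71 with 1 array left out. It passed the adjusted threshold in none of these runs, but its adjusted p moved widely. In limma that p was 0.444 with all arrays, 0.052 without Pfn2-/- replicate 3 and 0.998 without wild-type replicate 2. The contrast of Lpin1 with Lpin2 and Lpin3 ran from -2.14 to -1.34 with 1 array left out. Its contrast with the acyltransferases ran from -2.23 to -1.46 with 1 array left out. Genes past the adjusted threshold over all genes numbered 2 with array weights, 7 with the replicate number as a block and 0 to 6 with 1 array left out, 6 of them without wild-type replicate 3, and 0 members were among them. The other pathway lists had 0 genes past it under these alternatives, which were added for them after seeing the data. Members with groups that do not overlap numbered 4 to 7 with 1 array left out. The 7 without wild-type replicate 3 were 5 lower and 2 higher (Agpat2 and Mogat1) in Pfn2-/- livers, where 11.2% of all genes were apart and lower and 11% apart and higher. Over the 6 arrays left out in turn these shares were 8.77% to 11.2% and 8.61% to 11.5%. Gpam turned to 0.020 with array weights and ran from -0.70 to 0.37 with 1 array left out. Mogat1 turned to -0.0044 with quantile normalization again and to -0.0033 with cyclic loess, and ran from -0.035 to 0.13 with 1 array left out, and Agpat2 from -0.035 to 0.365. The causes were not tested. The replicate block changed the call of no member. Rows of low signal, with Lpin3 at about the median gene mean and Mogat1 below it, limit what could be seen.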
